A study of Mus musculus with 8 samples.

Results

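The 10 genes described here encode heat shock proteins and the cochaperones that work with them: Hspa1b, Hspa8, Hsph1, Dnajb1, Dnaja1, Hsp90aa1, Ahsa1, Chordc1, Hspb1 and Hspd1. They were chosen by name, with their liver values known, so their differences between the groups are given as a description without a test. They are 10 of 18193 genes with a named probe set, and 25 probe sets carry their symbols. Hspd1 encodes the chaperonin of the mitochondrial matrix, so the set is cytosolic apart from that gene.

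RNA from whole liver was hybridised to GeneChip arrays, 1 array per mouse, in 3 control mice, whose genotype is given as WT, and 5 POMCMfn2KO mice. By the name of the line, the mitochondrial fusion gene Mfn2 was lost from POMC neurons, which release a-MSH in the hypothalamus, and the title of the series links reduced a-MSH and hypothalamic endoplasmic reticulum (ER) stress to glucose production by the liver. The liver was thus not the tissue in which the gene was targeted. All mice were 6 weeks old, of a strain described as mixed C57Bl/6J, FVB/N and 129, with water and standard chow always available and 12 h of light a day. The labels give no Cre driver, sex, collection time or batch.

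Chaperones of the Hsp70 family bind unfolded stretches of protein in a cycle of ATP hydrolysis. J-domain proteins bring the substrate and start hydrolysis, and nucleotide exchange factors such as Hsph1 let the substrate go. The Hsp90 chaperones act later, on folding intermediates that include kinases and the glucocorticoid receptor, with cochaperones that set the pace of their ATPase. In stressed cells heat shock factor 1 (HSF1) binds heat shock elements, which are GAA units in alternating orientation, and switches on many of these genes, among them Hspa1b, Hsph1, Dnajb1 and Hspb1.

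The promoters of these genes were read for that element, since it is the DNA feature the family is known for. A pair of units was searched as GAANNTTC or TTCNNGAA, and a run of 3 units as GAANNTTCNNGAA or TTCNNGAANNTTC. The pairs read the same on both strands, the runs are each other's reverse complement, and a run of 3 contains both pairs. The windows, from RefSeq on GRCm38.p6, reach from 250 bases before to 50 bases after each listed transcription start. A window was listed for 8 of the 10 genes, all but Hspa8 and Hsp90aa1. A pair was found in 6 of the 8 (75%), against 4587 of 27025 genes with a window (17.0%). A run of 3 was found in 3 of the 8 (37.5%: Hsph1, Chordc1 and Hspd1), against 179 of all genes (0.662%). Neither Ahsa1 nor Dnajb1 had a match in these windows. A match is a stretch of letters, and binding was not measured here.

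The matches are printed 5′ to 3′ on the strand of the gene, with the units in capitals. A separate Chordc1 pair, at 34 to 41 past the start, is not printed. The Hspa1b stretch lies at chr17:34959319-34959358 on the minus strand, with its pair at -104 to -97 from the start. The Hsph1 stretch lies at chr5:149636346-149636385 on the minus strand, upstream of both listed starts, and its run of 3 lies past both, at chr5:149636288-149636300. The Chordc1 run spans the start, at chr9:18292263-18292285 on the plus strand. The Dnaja1 stretch lies at chr4:40722328-40722367 on the plus strand, before the first of 3 listed starts. The Hspb1 stretch lies at chr5:135887786-135887845 on the plus strand and holds 2 separate pairs. The Hspd1 stretch lies at chr1:55088043-55088092 on the minus strand.
Hspa1b: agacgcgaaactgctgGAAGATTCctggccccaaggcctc
Hsph1, upstream: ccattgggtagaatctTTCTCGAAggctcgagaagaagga
Hsph1, past the start: TTCTGGAAAGTTC
Chordc1: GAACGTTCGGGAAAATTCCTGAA
Dnaja1: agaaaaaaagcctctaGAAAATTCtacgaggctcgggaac
Hspb1: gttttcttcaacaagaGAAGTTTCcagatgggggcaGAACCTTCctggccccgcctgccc
Hspd1: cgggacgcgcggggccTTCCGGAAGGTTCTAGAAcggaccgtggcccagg

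The Chordc1 stretch is the longest unbroken series of units among these windows, with 3 overlapping runs of 3. The Hspd1 stretch is shared: Hspe1, its cochaperonin, is the next gene on chromosome 1, with no gene between, and reads the same bases on the plus strand. The Hspa1b stretch is likewise found base for base in the promoter of Hspa1a, the neighbouring gene on chromosome 17, and the windows of this pair are identical at 296 of 300 positions (98.7%).

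**Figure D1:**
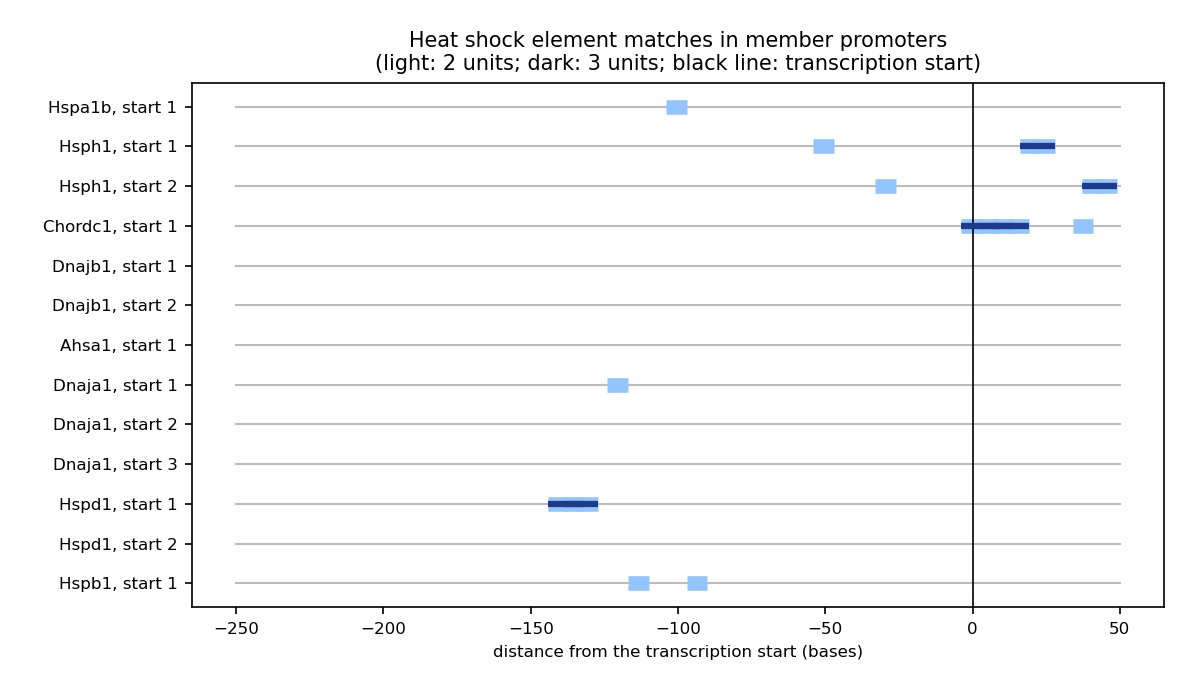
Positions of heat shock element matches in the RefSeq windows of the 8 genes with an entry, 1 row per listed start, by distance from the transcription start in bases (light: pairs; dark: runs of 3). Matches of Hspa1b, Dnaja1, Hspb1 and Hspd1 lie between -144 and -90, those of Chordc1 at and past the start, and Dnajb1 and Ahsa1 have none.

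All levels below are the deposited log2 values of a probe set, a difference is POMCMfn2KO mean minus control mean in log2 units, and a fold is the same difference on the linear scale. Errors are SD over 3 control and 5 POMCMfn2KO arrays. Each gene was read first on its brightest probe set, the one with the highest mean over the 8 arrays. A probe set was called dim where its mean lay under 5.80, the median of all probe sets. Of the 25 probe sets 23 were above that floor, and the 2 dim ones both belong to Hsp90aa1. Affymetrix marks with _x_at or _s_at those probe sets whose probes can bind further transcripts.

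Some arrays stood apart in markers of other cells. Among the 14 of 20 pancreatic acinar markers with a named probe set, the mean level was 6.15 to 6.19 in the controls, 10.27 and 10.48 in POMCMfn2KO 2 and 3, and 6.12 to 6.39 in the other POMCMfn2KO arrays. Each of the 14 was higher in both of these arrays than in any control, and none passed limma between the groups (0 at an unadjusted p under 0.05). Skeletal muscle markers (5 genes) were also highest in these arrays, with means of 6.67 and 6.91 against 5.49 to 5.96 in controls and 5.57 to 6.09 in the other POMCMfn2KO arrays. Each member is therefore also given without POMCMfn2KO 2 and 3. In POMCMfn2KO 4, Alas2, the erythroid enzyme of haem synthesis, was at 10.20, against 7.78 to 8.20 in the other arrays, while the erythroid markers Hba-a1 and Slc4a1 were dim there, at 4.38 and 4.78. Hepatocyte markers had a mean of 14.53 to 14.54 in controls and 14.55 to 14.70 in POMCMfn2KO. Neutrophil markers (5 genes) had a mean of 6.49 to 6.60 in controls and 5.83 to 6.02 in POMCMfn2KO. That gap lay mainly in S100a8 (-1.47, dim) and S100a9 (-1.56), and the median over the 4 tested neutrophil genes was -0.09. Kupffer cell markers (8 genes) had a mean of 9.42 to 9.75 in controls and 8.91 to 9.65 in POMCMfn2KO. In whole tissue, fewer cells of a type and less RNA per cell cannot be told apart, and the part of these cell types in the members' differences was not tested. The signal at the 3′ end minus that at the 5′ end of the control transcripts differed by -0.05 for Actb and -0.04 for Gapdh between the groups (exact permutation test, 2-sided, p = 0.214 and 0.232, both 0.232 adjusted). The smallest p that 3 against 5 arrays allow is 0.0179.

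As a set, the genes were higher in POMCMfn2KO liver. On the brightest probe sets the difference ran from 0.21 for Hspb1 to 2.18 for Hspa1b, with a median of 0.70, and 0.65 without POMCMfn2KO 2 and 3. The median over all 11986 genes tested was -0.02. All 5 POMCMfn2KO arrays lay above all 3 controls for 9 of the 10 genes, a pattern seen in 12% of all genes tested. That count uses the contrast the genes were chosen on and shows nothing beyond that choice.

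**Figure D2:**
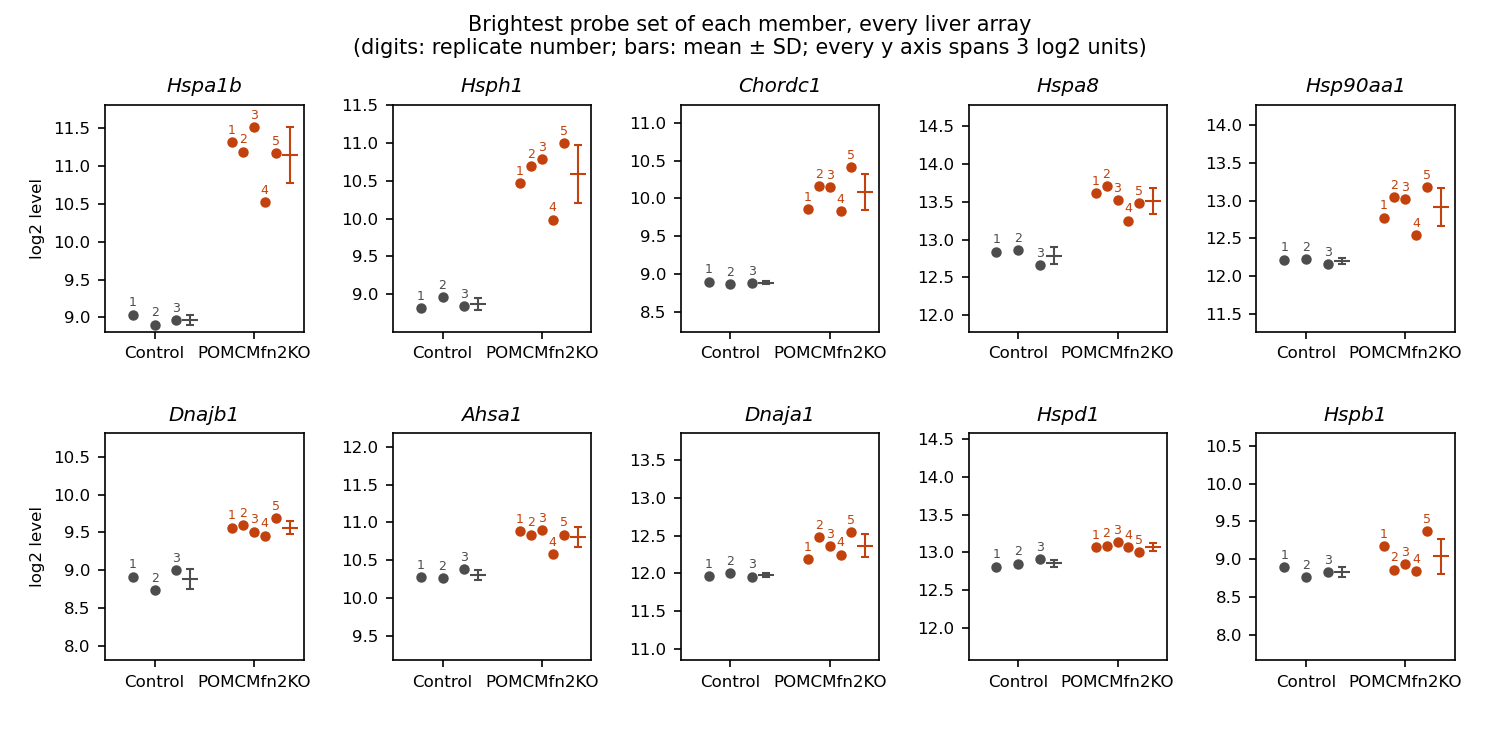
Log2 level of the brightest probe set of each gene in each array (points, numbered by replicate), with mean ± SD beside each group of 3 control and 5 POMCMfn2KO arrays; every axis spans the same number of log2 units. The POMCMfn2KO arrays lie above the controls for every gene but Hspb1, and POMCMfn2KO 4 is the lowest of its group for 8 of the 10 genes.

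Among the Hsp70 proteins, Hspa1b encodes the stress-inducible cytosolic form. On its brightest probe set, 1452318_a_at, its level was 9.03, 8.90 and 8.96 in controls 1 to 3 and 11.32, 11.19, 11.52, 10.53 and 11.18 in POMCMfn2KO 1 to 5. The groups were more than 1 log2 unit apart at their closest, between control 1 and POMCMfn2KO 4. The means were 8.96 ± 0.07 and 11.15 ± 0.37, a difference of 2.18 or 4.54-fold, and 2.04 without POMCMfn2KO 2 and 3. Only 6 of the genes tested had a larger difference. The 2 other probe sets gave the same order of arrays at the ends, POMCMfn2KO 3 highest and POMCMfn2KO 4 lowest. Probe set 1427127_x_at read 7.92, 7.95 and 7.78 in controls and 10.47, 10.27, 10.77, 9.69 and 10.36 in POMCMfn2KO, 5.40-fold. Probe set 1427126_at read 7.68, 7.74 and 7.67 against 10.51, 10.15, 10.76, 9.67 and 10.33, 6.01-fold.

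Hspa1a encodes a nearly identical protein, and probes for the one gene may bind transcripts of the other. Its own probe set was dim and not tested, at 4.43, 4.47 and 4.36 in controls and 4.57, 4.80, 4.75, 4.63 and 5.35 in POMCMfn2KO. The Hspa1b values may therefore hold transcripts of both genes, and their shares were not measured.

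Hspa8 encodes the constitutive Hsp70 of the cytosol, Hsc70. On 1455789_x_at its level was 12.84, 12.86 and 12.66 in controls and 13.61, 13.71, 13.53, 13.25 and 13.48 in POMCMfn2KO. The groups did not overlap, with POMCMfn2KO 4 nearest to the controls. The difference was 0.73, 1.66-fold, and 0.66 without POMCMfn2KO 2 and 3. Probe set 1420623_x_at gave 0.84, and 1420622_a_at gave 0.92, with POMCMfn2KO 1 at 12.85 and the other 4 arrays at 11.99 to 12.36. On 1431182_at, the faintest Hspa8 probe set but above the floor, the difference was 0.46. The groups overlapped there: POMCMfn2KO 4 at 6.86 lay below all controls and the other 4 above them.

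Hsph1, the Hsp110 protein that serves as nucleotide exchange factor for Hsp70, had the second largest difference of the set. Its level on 1425993_a_at was 8.81, 8.96 and 8.84 in controls and 10.47, 10.70, 10.79, 9.99 and 11.00 in POMCMfn2KO. The array nearest to the controls was again POMCMfn2KO 4, and POMCMfn2KO 5 was the highest. The means of 8.87 ± 0.08 and 10.59 ± 0.38 differ by 1.72, 3.29-fold, and by 1.62 without POMCMfn2KO 2 and 3. On 1423566_a_at the levels were 7.27, 7.05 and 7.14 against 8.64, 9.08, 9.30, 8.51 and 9.45, with the same arrays at the ends and a difference of 1.84.

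The J-domain proteins Dnajb1 and Dnaja1 hand substrates to Hsp70, and Dnajb1 is the heat-inducible Hsp40. On 1416755_at Dnajb1 stood at 8.91, 8.73 and 9.0 in controls and at 9.56, 9.60, 9.51, 9.46 and 9.69 in POMCMfn2KO. The 5 arrays lay close together, with an SD of 0.09 against 0.14 in the controls, and the difference was 0.68, 1.60-fold, and 0.69 without POMCMfn2KO 2 and 3. On 1416756_at the difference was 0.52. The groups were barely apart there, without overlap, with control 3 at 8.965 and POMCMfn2KO 1 at 8.972.

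Dnaja1, a farnesylated J-domain protein of the cytosol, was the one gene whose bright probe sets disagreed in sign. The brightest, 1416288_at, read 11.96, 12.00 and 11.95 in controls and 12.19, 12.48, 12.36, 12.25 and 12.55 in POMCMfn2KO, a difference of 0.39 without overlap, and 0.36 without POMCMfn2KO 2 and 3. On 1460179_at the levels were 11.73, 11.69 and 11.67 against 11.55, 11.35, 11.40, 11.75 and 11.38. There 4 of 5 POMCMfn2KO arrays lay below all controls, and the difference was -0.21. Probe set 1459835_s_at also gave -0.21, with overlapping groups. Averaged over the 3 probe sets the Dnaja1 difference was -0.01, so its direction rests on the choice of probe set, and which transcript each one reads was not tested.

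Hsp90aa1 encodes Hsp90 alpha, the more inducible of the cytosolic Hsp90 forms. Its level on 1438902_a_at was 12.22, 12.22 and 12.16 in controls and 12.78, 13.04, 13.02, 12.54 and 13.18 in POMCMfn2KO. Controls differed from each other by less than the gap to the lowest POMCMfn2KO array, number 4. The difference was 0.71, 1.64-fold, and 0.63 without POMCMfn2KO 2 and 3. Probe set 1426645_at read 10.26, 10.32 and 10.17 against 10.86, 11.26, 11.39, 10.79 and 11.64, a difference of 0.94. On 1437497_a_at the difference was 0.83, but control 2 at 9.76 lay above POMCMfn2KO 4 at 9.56. The dim probe sets gave 0.50 and 0.04.

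Cochaperones of Hsp90 were read on 2 genes. Chordc1 encodes a zinc-binding cochaperone of Hsp90, and its only probe set, 1460645_at, read 8.90, 8.86 and 8.88 in controls and 9.85, 10.16, 10.15, 9.83 and 10.41 in POMCMfn2KO. The controls were nearly equal, with an SD of 0.02, and every POMCMfn2KO array was well above them. The means of 8.88 and 10.08 ± 0.24 differ by 1.20, 2.30-fold, and by 1.15 without POMCMfn2KO 2 and 3.

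Ahsa1 encodes the activator of the Hsp90 ATPase. On 1424147_at its level was 10.27, 10.26 and 10.38 in controls and 10.88, 10.84, 10.89, 10.58 and 10.84 in POMCMfn2KO. The groups did not overlap, and POMCMfn2KO 4 stood apart from the other 4 arrays of its group, which lay within 0.1 of each other. The difference was 0.50, 1.42-fold, and 0.46 without POMCMfn2KO 2 and 3. The faint 1444500_at, close to the floor, gave 0.22 and moved the mean over both probe sets to 0.36.

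The smallest differences belonged to the small heat shock protein and the chaperonin. Hspb1 encodes the ATP-independent holdase known as Hsp25 in mouse. Its level on 1422943_a_at was 8.89, 8.76 and 8.83 in controls and 9.17, 8.86, 8.94, 8.84 and 9.37 in POMCMfn2KO. The groups overlapped: 3 POMCMfn2KO arrays lay above all controls, and numbers 2 and 4 lay among them. The difference was 0.21, and 0.30 without POMCMfn2KO 2 and 3, but 0.13 without POMCMfn2KO 5, the highest array. Probe set 1425964_x_at, with overlapping groups, gave 0.15.

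Hspd1 encodes the Hsp60 subunit of the mitochondrial chaperonin. On its only probe set, 1426351_at, the levels were 12.81, 12.85 and 12.91 in controls and 13.07, 13.09, 13.14, 13.07 and 13.00 in POMCMfn2KO. The groups did not overlap, but control 3 and POMCMfn2KO 5 were close. The difference was 0.22, 1.16-fold, with an SD of 0.05 in both groups, and 0.19 without POMCMfn2KO 2 and 3. Its neighbour Hspe1 gave 0.22 on the brightest probe set (limma, adjusted p = 0.236), and 0.12 without POMCMfn2KO 1, which was the highest. A second probe set gave 0.42. The groups overlapped on neither, but control 1 and POMCMfn2KO 5 were both at 11.98 on the brightest.

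Counted over probe sets rather than genes, 17 of the 23 above the floor had all POMCMfn2KO arrays higher than all controls, none had all lower, and 6 overlapped. Over all named probe sets above the floor the first pattern held for 12.4%. This count, too, uses the contrast the genes were chosen on, and several probe sets read the same gene, so it adds no support. In 2 of the 23, both of Dnaja1, the POMCMfn2KO mean was below that of the controls.

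**Figure D3:**
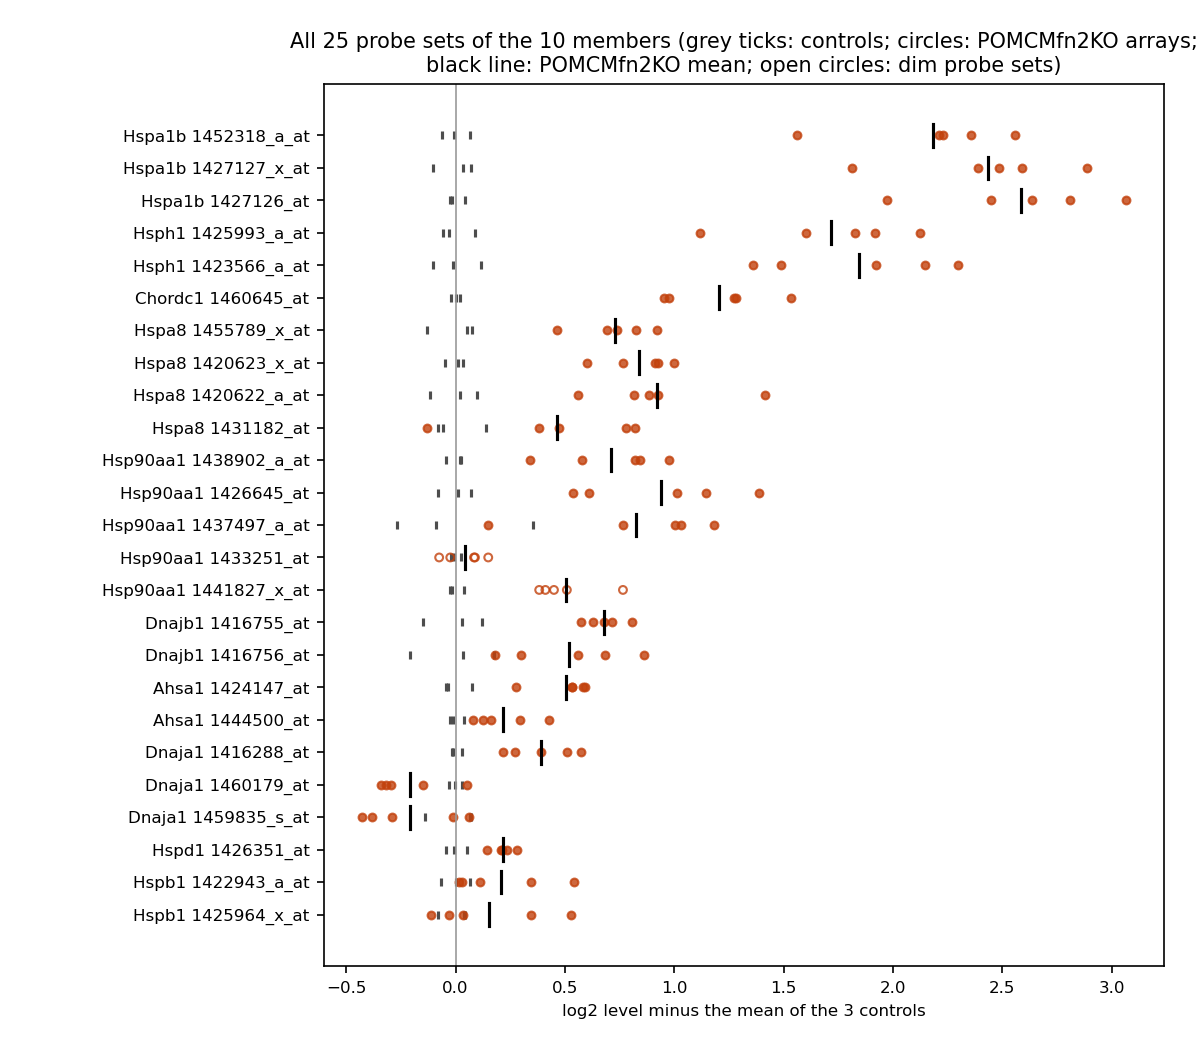
Log2 level minus the control mean for every probe set of the 10 genes, with controls as grey ticks, POMCMfn2KO arrays as circles (open for the 2 dim probe sets) and the POMCMfn2KO mean as a black line. All probe sets of Hspa1b and Hsph1 lie far to the right of the controls, and 2 probe sets of Dnaja1 have a mean of -0.21.

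The mice differed from each other in a way that most of these genes shared. Averaged over the 10 genes, the distance from the control mean was 0.84, 0.91, 0.93, 0.58 and 1.01 in POMCMfn2KO 1 to 5, while the controls lay between -0.01 and 0.01. POMCMfn2KO 4 was the lowest of its group for 8 of the 10 genes, and POMCMfn2KO 5 the highest for 6. Over all genes called up by limma, POMCMfn2KO 4 was the lowest in 49.6% and POMCMfn2KO 5 the highest in 34.4%. In that average the arrays high in acinar markers, 2 and 3, stood between the others, at 0.91 and 0.93. By the median over the 10 genes the distances were 0.63, 0.78, 0.68, 0.40 and 0.75 in POMCMfn2KO 1 to 5. POMCMfn2KO 2 was thus the highest by the median, and POMCMfn2KO 5 by the mean. The SD of the 10 genes had a median of 0.20 in POMCMfn2KO and 0.07 in controls, against 0.13 and 0.07 over all genes tested. Most genes tested were not called, and no SD is given for the genes called up alone.

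**Figure D4:**
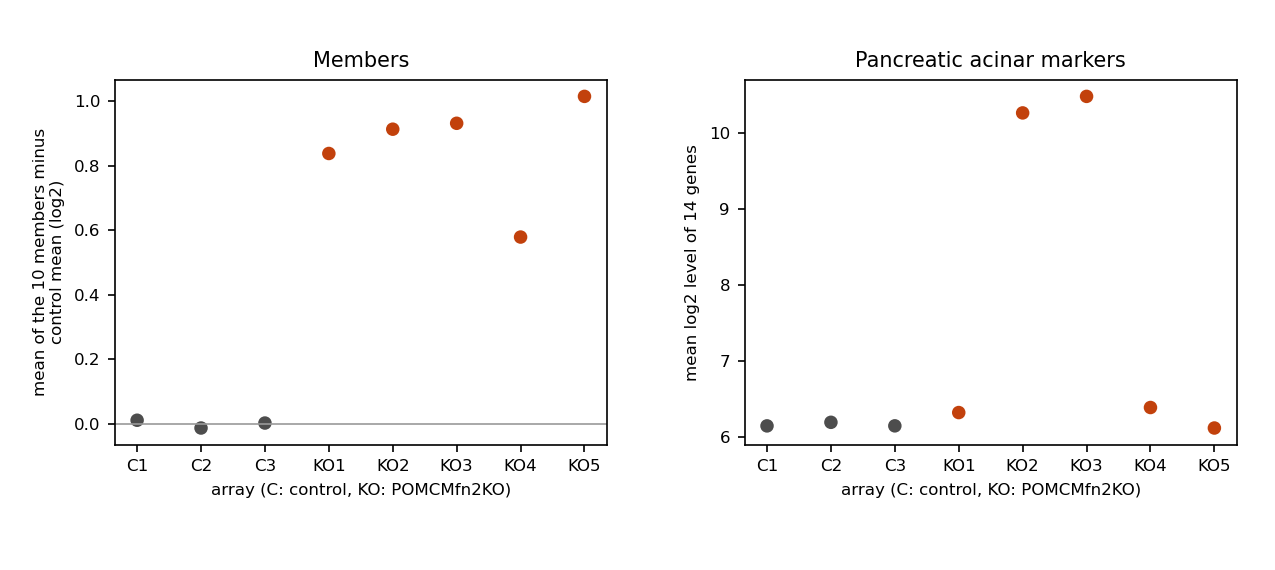
Left, mean of the 10 genes minus their control mean in each array (log2); right, mean log2 level of 14 pancreatic acinar markers in the same arrays. The genes lie at 0.58 to 1.01 in all 5 POMCMfn2KO arrays, while the markers are high only in POMCMfn2KO 2 and 3, at 10.27 and 10.48.

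Other chaperones were read from lists of genes outside the 10. These lists, too, were chosen with earlier results of these data known. For these genes "rose" and "fell" mean an adjusted p under 0.05 by limma, with Benjamini-Hochberg adjustment over all 11986 genes. Of 35 other cytosolic chaperones and cochaperones, 31 had a named probe set and 28 were tested. Of these 4 rose (14.3%) and 2 fell (7.14%), beside 7.02% and 10.9% of all genes, and their median difference was 0.06. Hsp90ab1, the constitutive Hsp90 form, was not analysed here.

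Stip1, the adaptor that links Hsp70 to Hsp90, rose from 7.94 ± 0.03 to 8.68 ± 0.26, a difference of 0.74 (adjusted p = 0.0076; 0.0544 without POMCMfn2KO 2 and 3). Fkbp5, an immunophilin that binds Hsp90 in steroid receptor complexes and is itself a glucocorticoid target, rose by 1.26 (adjusted p = 0.0214), with POMCMfn2KO 1 at 11.39 and POMCMfn2KO 4 at 9.66. Its relative Fkbp4 rose by 0.40 (adjusted p = 0.0207). The J-domain gene Dnajb4 rose by 0.35 (adjusted p = 0.0087; 0.0520 without control 2). Both Fkbp calls were lost without any 1 of the controls (adjusted p up to 0.0927) and without POMCMfn2KO 2 and 3 (0.112 and 0.111).

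Both genes of this list that fell encode small heat shock proteins. Hspb8, which acts with Bag3 in selective autophagy, fell from 11.34 ± 0.02 to 10.80 ± 0.12 (difference -0.54, adjusted p = 0.00298), and its other probe sets gave -0.39 and -0.52 without overlap. Hspb6 fell by 0.56 on the log2 scale (adjusted p = 0.0318), a call lost without any 1 control, POMCMfn2KO 2 or POMCMfn2KO 3 (adjusted p up to 0.130). Cryab, a further small heat shock protein gene, differed by 0.09 without passing (adjusted p = 0.659). Bag3, an HSF1 target and cochaperone of Hsp70, differed by 0.18 without passing the test (adjusted p = 0.122). Without POMCMfn2KO 2 and 3 this list had 1 gene up and 1 down. It had 2 up without control 1 or 3 and 1 without control 2, and 1 down without any 1 control, POMCMfn2KO 2 or POMCMfn2KO 3.

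TRiC, the ring-shaped chaperonin of the cytosol, folds actin and tubulin that prefoldin delivers. Of the 14 tested subunits of TRiC and prefoldin, 7 rose (50%) and 2 fell (14.3%), beside 7.02% and 10.9% of all genes. Their median difference was 0.22. Cct7 rose from 10.04 ± 0.03 to 10.68 ± 0.10 (adjusted p = 0.000867), and its second probe set gave 0.35. The other risers were Tcp1 (0.48), Cct2 (0.46), Cct5 (0.38), Cct3 (0.35), Cct8 (0.31) and the prefoldin gene Pfdn6 (0.29), while Pfdn1 (-0.46) and Pfdn5 (-0.21) fell. With the mean of all probe sets Cct8 gave 0.19 and did not pass (adjusted p = 0.0857). The count was lower with fewer arrays: 1 gene, Cct7, rose without POMCMfn2KO 2 and 3 or without control 3, and 2 rose without control 1 or control 2. In the same fits the number that fell was 0 without POMCMfn2KO 2 and 3, control 1 or control 3, and 1 without control 2, POMCMfn2KO 2, 3, 4 or 5.

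The chaperones of the ER are controlled mainly by the unfolded protein response rather than by HSF1. Of 19 tested, 8 rose (42.1%) and none fell by limma (1 at an unadjusted p under 0.05), with a median of 0.38. Over all genes 7.02% rose and 10.9% fell. Among the 8 were Creld2 (1.77, adjusted p = 0.00304), Manf (1.39, 0.00167), Dnajb9 (0.89, 9.9e-05) and Hspa5, the BiP chaperone (0.87, 0.00191). Without POMCMfn2KO 2 and 3 these 4 passed and no other, with differences of 1.60, 1.27, 0.89 and 0.79. The count was 4 or 5 without any 1 of the controls and 5 without POMCMfn2KO 2 or POMCMfn2KO 3. Other bright probe sets of Hspa5 gave 1.09 without overlap and 0.10 with overlapping groups.

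Among 15 tested mitochondrial chaperones and proteases, 1 rose and 1 fell (6.67% each), beside 7.02% and 10.9% of all genes. Their median difference was 0.03. Hspa9, the mitochondrial Hsp70, rose by 0.20 (adjusted p = 0.0461), a call lost without any 1 array except POMCMfn2KO 4 (adjusted p up to 0.154) and without POMCMfn2KO 2 and 3 (0.202). Another bright probe set of Hspa9 gave -0.14, and the mean of all its probe sets gave 0.09 (adjusted p = 0.279). Hscb, a J-domain protein of iron-sulphur cluster assembly, fell by 0.70 on the log2 scale (adjusted p = 0.00159), and 2 genes of the list fell without POMCMfn2KO 4.

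**Figure D5:**
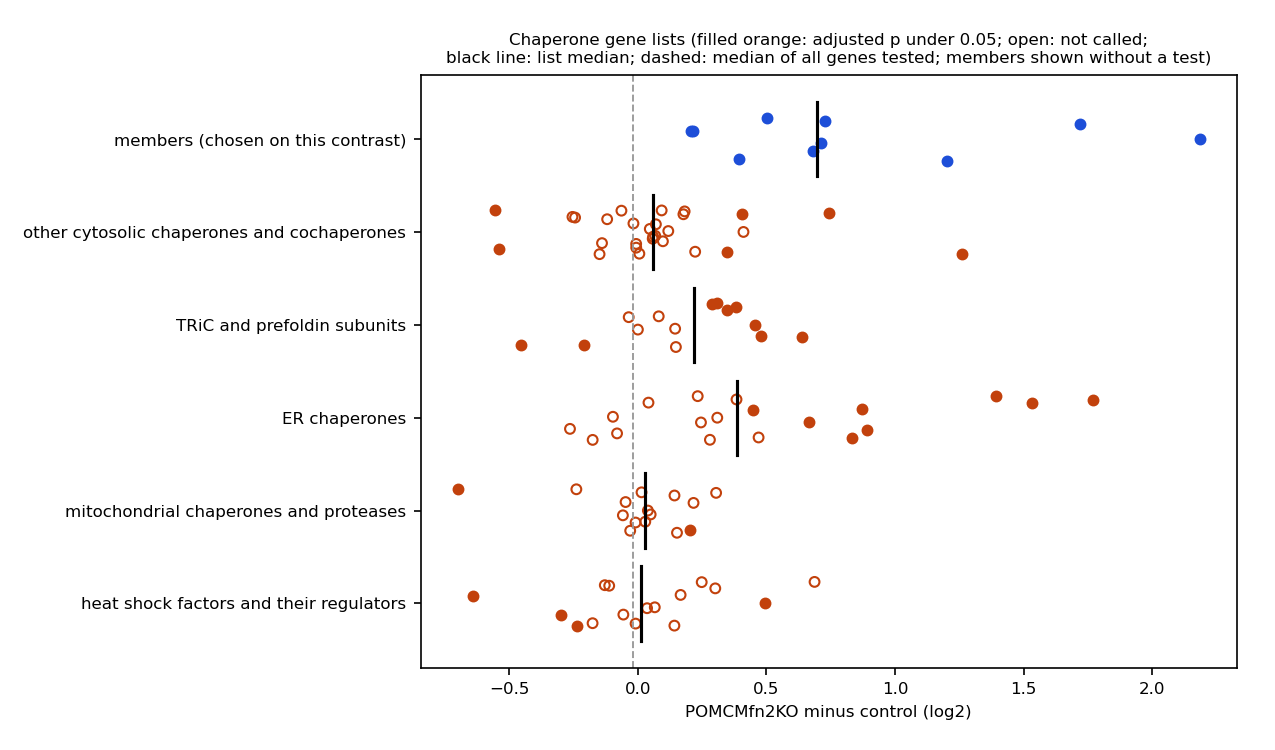
Difference between POMCMfn2KO and control means (log2) for each tested gene of the chaperone lists, filled where limma gave an adjusted p under 0.05, with the list median as a black line and the median of all genes tested, -0.02, dashed; the 10 chosen genes are in blue, without a test. ER chaperones (median 0.38) and TRiC with prefoldin (0.22) lie to the right of the other cytosolic, mitochondrial and regulator lists, whose medians are 0.06, 0.03 and 0.01.

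The heat shock factors and their regulators gave 1 riser and 3 fallers among 16 tested genes (6.25% and 18.8%). Over all genes the shares were 7.02% and 10.9%, and the median difference of this list was 0.01. Hsf1 itself was not analysed here. Hsf2, a related factor that can bind the same element, differed by 0.69, from 6.38 ± 0.23 to 7.06 ± 0.44, and did not pass (adjusted p = 0.0661). POMCMfn2KO 1 at 6.35 lay among the controls, and without it the adjusted p was 0.00386. Crebbp, an acetyltransferase that can modify HSF1, rose by 0.49 on its brightest probe set (adjusted p = 0.00311), but 2 further bright probe sets gave 0.06 and 0.02. Ier5, a cofactor that promotes HSF1 activity, fell by 0.64 on the log2 scale (adjusted p = 0.01; 0.0564 without control 1). Its second bright probe set gave -0.07.

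Hsbp1, which binds the trimer domain of HSF1, fell by 0.30 on the log2 scale (adjusted p = 0.026), a call lost without any 1 control, POMCMfn2KO 2 or POMCMfn2KO 3 (adjusted p up to 0.111). Zfand2b also fell, by 0.23 (adjusted p = 0.0493), and that call was lost without any 1 array except POMCMfn2KO 1 (adjusted p up to 0.171). Without POMCMfn2KO 2 and 3 the counts of this list were 1 up and 1 down. It had no gene down without control 1, 1 down without control 2, control 3, POMCMfn2KO 2 or POMCMfn2KO 3, and 2 up without POMCMfn2KO 1 or POMCMfn2KO 3.

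Another pair of lists gives context on temperature and handling, for which the labels hold no record. Cirbp, an RNA-binding protein induced by cooling and lowered by warming, fell from 9.11 ± 0.10 to 8.14 ± 0.19 (difference -0.96, adjusted p = 0.000942). Its levels were 9.22, 9.09 and 9.01 in controls and 8.27, 8.09, 8.25, 8.27 and 7.84 in POMCMfn2KO, so the groups did not overlap. Rbm3, the other gene of that list, was not analysed here. Of 15 immediate early genes, which respond to many acute stimuli, 11 were tested. By limma none rose (1 at an unadjusted p under 0.05) and 3 fell (27.3%), beside 7.02% and 10.9% of all genes. The median difference was -0.28.

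Nr4a1 fell by 0.66 on the log2 scale (adjusted p = 0.000944), Fos by 0.61 (0.0166) and Ier2 by 0.28 (0.0298). The Fos call was lost without control 1 (adjusted p = 0.0815), control 3 (0.0514) or POMCMfn2KO 2 and 3 (0.0631). The Ier2 call was lost without any 1 control (0.0971 to 0.107), POMCMfn2KO 3 (0.0627) or POMCMfn2KO 2 and 3 (0.093). Only 1 gene of that list fell without control 1, without control 3, or without POMCMfn2KO 2 and 3, while 5 fell without POMCMfn2KO 1. The part of body temperature or of handling in the members' levels was not tested.

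The promoter search gave fewer matches in these lists than in the 10 genes, as shares of genes with a window. A pair was found for 10 of 30 other cytosolic chaperones (33.3%), against 17.0% of all genes with a window. These 10 were Hspa1a, Dnajb4, Dnajb6, Dnaja4, Bag3, Cdc37, Fkbp4, Stub1, Hspb6 and Hspb8. Dnajb4 and Fkbp4 rose, Hspb6 and Hspb8 fell, and the rest were not called or not tested. Stip1 and Fkbp5, which also rose, had no pair. For TRiC and prefoldin the count with a pair was 3 of 12 (25%), and for mitochondrial genes 2 of 10 (20%). Heat shock factors and regulators had 2 of 16 (12.5%) and ER chaperones 1 of 16 (6.25%). A run of 3 was found in Dnajb6 and Hspe1 only, over all of these lists.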

How the data were processed

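The authors deposited log2 values for each probe set, computed with RMA and affy per the submitters' processing notes; versions are not given in the sources used here. RMA normalizes between arrays and summarises probes, so small differences can shrink. No value was transformed again. Medians over probe sets were 5.79 to 5.81 in every array; arrays carry no depth.

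Of 45101 probe sets, 64 were controls, 34945 had 1 gene symbol, 932 several and 9160 none. Each of 18193 genes was read on its brightest probe set; 6207 dim genes, with a mean under 5.80, were left out and 11986 tested, POMCMfn2KO minus control, with limma 3.58.1 in R 4.3.3 (2-sided, Benjamini-Hochberg, threshold 0.05). The script was tested on simulated data. Each limma p sets the difference of the group means against the spread between mice within the groups, pooled over both. That spread is moderated, which means that it is moved toward a value fitted over all genes tested.

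The members and lists were chosen with earlier results of these data known. Named genes were all members, up to 6 genes of each list with the lowest p among those past the threshold, 12 fixed genes, and the 8 genes most like the members by level and by deviation. Cct3, Pfdn6, Pfdn5 and the list genes named for their promoters were named after their values were seen. Alternatives changed filter, probe set choice, scaling, variance model, threshold, array weights and replicate block, and left out arrays. Markers were also read for lymphocytes, endothelial, stellate, cholangiocyte, erythroid and skeletal muscle cells: over these lists Stab2 rose by 0.55, and no other gene passed the test. Elsewhere Cps1 rose by 0.31, and Timd4 (-0.69) and S100a9 (-1.56) fell. Figures used matplotlib 3.10.9 in Python 3.11.15.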

Additional observations from a re-analysis of the deposited data

Results flagged for a closer look

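Among 57 sets of 5 POMCMfn2KO values that were checked, 6 held 1 array far from the other 4, by a gap over 0.71 of the whole range (Dixon's critical value for 5 samples). Chance alone gives about 1 in 20 such sets. Ahsa1 was low in POMCMfn2KO 4, at 10.58. Cct5, a TRiC subunit, was also low in POMCMfn2KO 4, at 11.25, nearer to its controls than the other arrays were. Bag3 was high in POMCMfn2KO 4, at 9.67. Pfdn1 was low in POMCMfn2KO 5, at 8.38, and Crebbp high in POMCMfn2KO 5, at 9.07. Hspe1 was high in POMCMfn2KO 1, at 12.51.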

How the results depend on the processing

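The median difference of the 10 genes, 0.70, stayed between 0.60 and 0.75 under all alternatives run, and between 0.65 and 0.75 when 1 array was left out. Averaging all probe sets turned Dnaja1 to -0.0087, and no other member changed sign. Over all genes, 842 rose and 1310 fell. Leaving out 1 array gave 287 to 1159 up and 492 to 1649 down, with the lowest counts without a control. Leaving out POMCMfn2KO 2 and 3 gave 235 up and 410 down, a threshold of 0.01 gave 253 and 449, and array weights gave 1323 up. Without POMCMfn2KO 2 and 3, the counts up and down were 1 and 1 for other cytosolic chaperones, 1 and 0 for TRiC and prefoldin, 4 up for ER chaperones, 0 up for mitochondrial genes, 1 down for heat shock factors and 1 down for immediate early genes. At 0.01 they were 2 and 1, 2 and 0, 5 up, 0 up, 0 down and 1 down, in that order. Array weights gave 4 down for other cytosolic chaperones, 2 up for mitochondrial genes, 3 up for heat shock factors, and 1 up and 5 down for immediate early genes. TRiC and prefoldin had 1 gene down with no filter, with the mean of all probe sets and with quantile normalization again. Mitochondrial genes had 0 up with no filter or arrays centred on their median, and 3 up with the mean of all probe sets. Heat shock factors had 2 up with the filter at the 60th percentile. Leaving out 1 array gave 1 to 5 up and 1 to 3 down for other cytosolic chaperones, 1 to 7 and 0 to 2 for TRiC and prefoldin, 0 to 1 and 1 to 2 for mitochondrial genes, 4 to 11 up for ER chaperones, 1 to 2 and 0 to 3 for heat shock factors, and 0 to 1 and 1 to 5 for immediate early genes. The cause of these shifts was not tested.

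With the replicate number as a replicate block, 715 genes rose and 1176 fell, TRiC and prefoldin had 1 gene down, heat shock factors 3 up, including Hsf2 (adjusted p = 0.0458), and immediate early genes 1 up. The calls of Hspa9 (0.0696), Zfand2b (0.167) and Ier2 (0.0813) were lost. The deviations of same-numbered arrays correlated at 0.043, 0.037 and -0.033 over genes, so the numbers were not taken to pair the samples. Controls 1 and 2 correlated best with their own number, control 3 did not. The number of arrays limits the precision, and a low or dim signal says little about a gene.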

Other observations

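The genes whose levels ran most closely with the mean of the 10 chaperone genes over the 8 arrays were Ipo7, Manf, Rhpn2, Cct7, Actr8, Usp39, Cep350 and Igfbp2, with Pearson's r from 0.995 to 0.990. The 8 arrays share the difference between the groups, so the values include it, and no p is given. Igfbp2, which binds insulin-like growth factors in plasma, had the largest difference of these 8 (2.50). Ipo7, a nuclear import receptor, rose by 0.45 (limma, adjusted p = 0.00388) on its brightest probe set, but by the mean of all its probe sets the difference was 0.11 and did not pass (adjusted p = 0.533). The Cep350 call also ended with that mean (difference 0.28, adjusted p = 0.0636). Manf, an ER protein induced by unfolded proteins, and Cct7, a TRiC subunit, are the members of the other chaperone lists among these 8 genes.

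When the group means were taken out, the closest genes were Eefsec, Eri1, Nadk, Ipmk, Etfbkmt, Slc35g1, Gin1 and Odf2, with r from 0.991 to 0.98 over the same arrays. None of these 8 is among the first 8. With all arrays and no block, only Slc35g1 of the 8 passed limma between the groups (difference 0.78, adjusted p = 0.0366), a call lost without any 1 control (adjusted p up to 0.121), POMCMfn2KO 2 or POMCMfn2KO 3. Other settings added calls: without POMCMfn2KO 4 limma passed Etfbkmt (adjusted p = 0.00322), Gin1 (0.00579) and Nadk (0.0343), and with the replicate number as a block Etfbkmt (0.00692) and Gin1 (0.0273).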
